A study of Mus musculus with 12 samples.

Results

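A set of 9 transcription factors known from the formative and primed epiblast was followed in mouse embryonic stem cells: Pou3f1, Otx2, Zic2, Zic5, Sall2, Sox4, Sox12, Grhl2 and Etv1. They were chosen with earlier results of these data known, and were taken by symbol from a count table of 53819 symbols. All 9 were found, and all 9 passed the filter on low counts that left 13852 genes. The cells were the E14 line, grown in 2 dimensions, in 4 groups of 3 libraries: 72 h of L-proline plus budesonide ("both"), 72 h of L-proline, 72 h of budesonide, and an untreated control. Every group is the same line, so the values describe E14 cells and no other line. L-proline is an amino acid that drives mouse embryonic stem cells out of the naive state, and budesonide is a synthetic glucocorticoid. The labels used here give no dose, and do not state whether replicates were separate cultures, so a p-value here reflects variation among libraries that may be only technical.

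Naive stem cells resemble the epiblast before implantation. On the way to differentiation they switch off naive factors and switch on a formative and then a primed programme, in which Otx2 and Oct4 (Pou5f1) open new enhancers and Grhl2 takes over epithelial genes. Pou3f1 is a POU domain factor of the postimplantation epiblast, Zic2 and Zic5 are zinc finger factors, Sall2 is a spalt-like zinc finger factor, Sox4 and Sox12 are HMG box factors of the SoxC group, and Etv1 is an ETS factor of the PEA3 group, which often follows FGF and ERK signalling. In bulk cultures such as these, fewer cells that express a gene and less RNA per cell cannot be told apart.

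The libraries held 6.58 to 7.52 M counts in both, 6.78 to 15.9 M with proline, 6.03 to 8.48 M with budesonide and 5.30 to 6.73 M in control. Budesonide 3 and control 3 had the largest shares of tested genes at 0, 8.43% and 6.57%, while the other 10 libraries had 1.39% to 5.77%. Mitochondrially encoded genes took 7.90% to 8.03% of the counts in both, 5.51% to 5.79% with proline, 7.42% to 7.98% with budesonide and 7.31% to 7.77% in control. The ribosomal RNA gene Rn18s took 3.11% to 5.90% in both, 2.36% to 3.39% with proline, 2.28% to 6.70% with budesonide and 2.21% to 2.77% in control. The part of these differences in the results was not tested. The stem cell genes Sox2 and Sall4 were counted in every library, Sox2 at 570.4 ± 14.3 CPM in both, 458 ± 20.4 with proline, 515 ± 64.9 with budesonide and 526 ± 46.5 in control (SD, n = 3). Other stem cell genes differed between groups. Nanog and Zfp42 fell with proline, by 0.97 ± 0.15 and 1.36 ± 0.16 on the log2 scale (SE). Utf1 fell with budesonide, by 0.55 ± 0.12. Pou5f1, at no more than 36.4 CPM, was not called in any comparison. CPM is a gene's count per M counts of the TMM-scaled library total. The 9 genes did not all move together: 5 rose with proline, while Sox12 and Etv1 had estimates close to 0.

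RefSeq promoters of build GRCm38.p6 were given for 6 of the 9 genes, with 11 start sites. The stretch from 250 to 51 bases before the start is given for 3 factors that rose with proline (Otx2, Zic5, Sall2) and for Sox12 and Etv1, which were not called there, so that the sequence before the start can be read beside the values. Sox4, which also rose, and the other starts of Otx2, Sall2 and Etv1 are not shown. Capitals mark a match, on either strand, to the core of a site for the same families of factors.
Otx2 chr14:48667695-48667894 (- strand): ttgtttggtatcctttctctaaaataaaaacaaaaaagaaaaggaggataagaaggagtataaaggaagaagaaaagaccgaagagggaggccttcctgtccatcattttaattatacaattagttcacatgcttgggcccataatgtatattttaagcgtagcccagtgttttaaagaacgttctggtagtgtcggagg
Zic5 chr14:122465709-122465908 (- strand): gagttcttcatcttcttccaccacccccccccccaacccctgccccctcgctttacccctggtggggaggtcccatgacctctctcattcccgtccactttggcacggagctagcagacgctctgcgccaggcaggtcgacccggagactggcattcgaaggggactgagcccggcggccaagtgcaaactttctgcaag
Sall2 chr14:52316374-52316573 (- strand): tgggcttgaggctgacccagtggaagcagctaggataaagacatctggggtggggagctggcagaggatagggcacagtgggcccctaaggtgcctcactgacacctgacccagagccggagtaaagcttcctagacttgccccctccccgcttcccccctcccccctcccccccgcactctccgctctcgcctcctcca
Sox12 chr2:152398097-152398296 (- strand): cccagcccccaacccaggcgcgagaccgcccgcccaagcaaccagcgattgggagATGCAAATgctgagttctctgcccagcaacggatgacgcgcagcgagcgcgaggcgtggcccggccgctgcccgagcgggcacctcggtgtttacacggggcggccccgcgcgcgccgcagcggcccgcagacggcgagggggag
Etv1 chr12:38779832-38780031 (+ strand): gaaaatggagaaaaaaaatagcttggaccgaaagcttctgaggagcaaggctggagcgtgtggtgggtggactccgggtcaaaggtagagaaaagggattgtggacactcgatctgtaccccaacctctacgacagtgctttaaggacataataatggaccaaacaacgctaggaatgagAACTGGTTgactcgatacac
The motifs searched for these families were ATGCAAAT (POU octamer), TAATCC (OTX), CAGCAGG (ZIC), AACAAAG (SOX), AACCNGTT (GRHL) and CCGGAAG (ETS). The TATA box and the CCAAT box were searched too and are not marked. The Sox12 stretch held the octamer 195 bases before the start, and 1.32% of 32851 promoter stretches of the same length held it. The Etv1 stretch held a GRHL match 70 bases before the start, as did 1.42% of all stretches. Another Otx2 start had an OTX match 211 bases before it, a motif found in 5.22% of stretches. The ETS, ZIC and SOX motifs were in none of the 11 stretches, and 3.98%, 6.82% and 4.06% of all stretches held them. A match describes the letters and not binding.

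With proline alone, 5 of the 9 factors rose and none fell, where 3.17% of all tested genes rose and 4.71% fell. Pou3f1, Sall2, Otx2, Zic5 and Sox4 rose, and Zic2, Grhl2, Sox12 and Etv1 were not called. The median log2 change of the 9 was 1.14, against −0.01 over all tested genes. Because the 9 were chosen with earlier results of these data known, these counts and medians describe them and are no test of the set. The threshold for a call was an adjusted p of 0.05 in edgeR's quasi-likelihood test over all 12 libraries, adjusted over all genes by the Benjamini-Hochberg method, and "rose" or "fell" is used of called genes only.

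When budesonide was added to proline, 5 of the 9 factors fell and none rose relative to proline alone, where 4.27% of all genes fell and 5.83% rose. Pou3f1, Sall2, Otx2 and Sox4 fell, and so did Sox12, which was not called with proline alone. The median change was −0.80, against 0.02 over all genes. Zic5 and Zic2 were not called, with Zic5 at a log2 change of −0.0030 ± 0.23 (SE). Without the first library of both compounds, 3 factors were called (Pou3f1, Otx2 and Sall2), and 836 genes in place of 1399. These changes and those of proline alone share the proline libraries.

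With budesonide alone, Etv1 rose, Otx2 fell, and 7 of the 9 were not called, where 6.51% of all genes were called in either direction. The median change was −0.0022, against 0.01 over all genes. Without control 3 and budesonide 3, neither was called. The count was 1 without control 1, control 2, control 3, proline 1, proline 3, budesonide 3 or the first library of both. The 1 factor called was Zic5 without control 2, Grhl2 without control 3 and Etv1 in the other runs named. Both compounds together, against untreated cells, gave rises of Pou3f1, Zic2 and Zic5 and a fall of Sox12, where 3.34% of all genes rose and 3.83% fell (median 0.41, against 0.01). That count of 4 was 2 without control 1, control 2 or the first library of both. Against budesonide alone, both gave rises of Pou3f1 and Otx2 and a fall of Sox12, where 0.874% of all genes rose and 0.592% fell (median 0.59, against 0.01). Comparisons that share a group are not independent of each other. Without control 3 and budesonide 3, the counts for proline against control were the same, 6 factors fell with both compounds against proline, 2 rose and 1 fell against control, and 2 rose and none fell against budesonide.

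**Figure D1:**
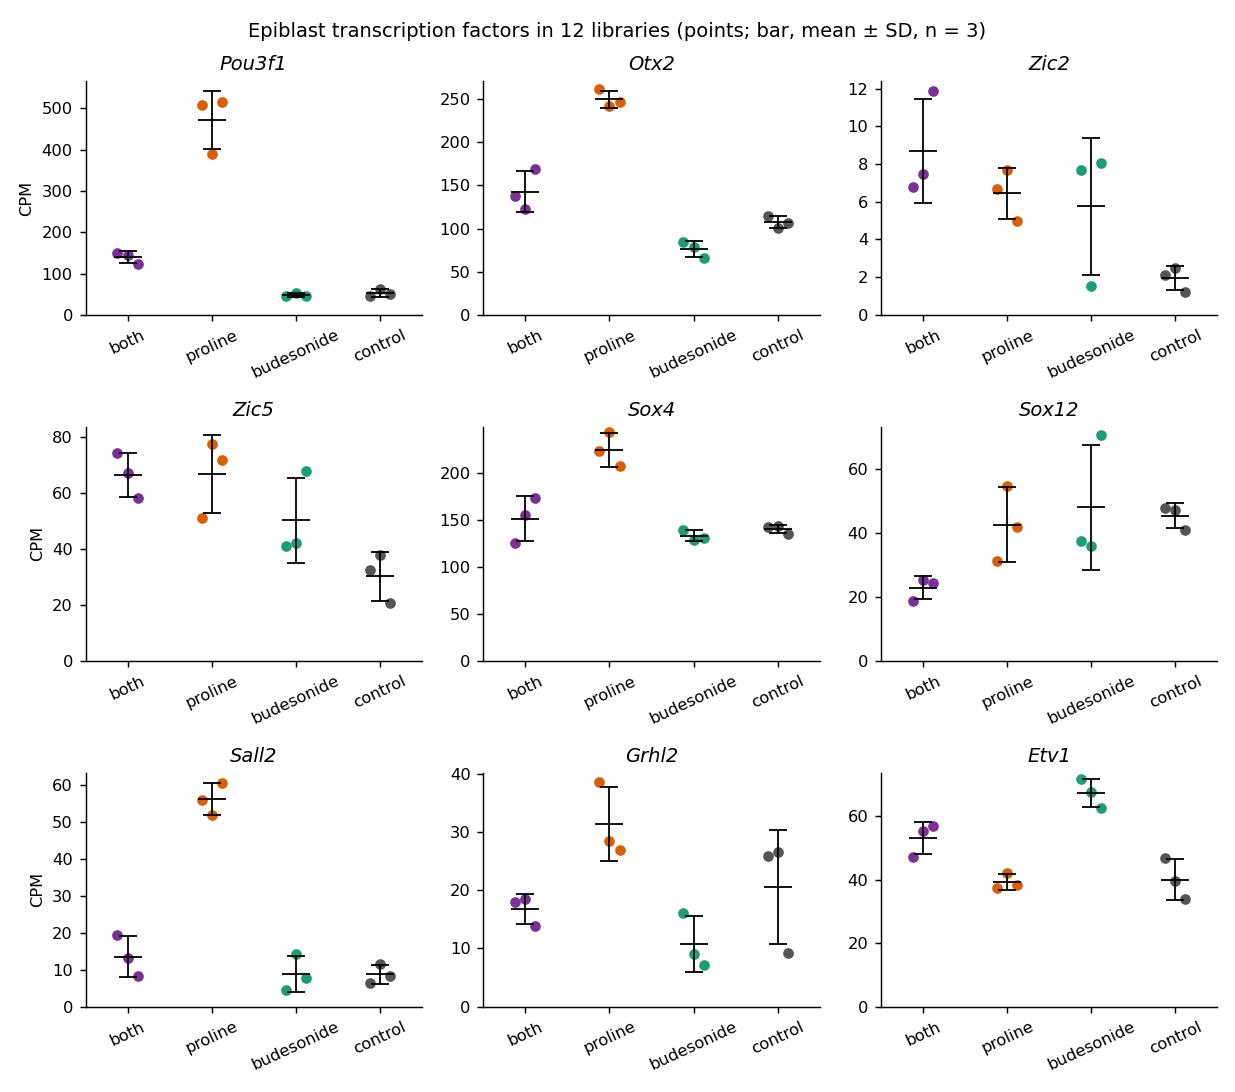
CPM of each of the 9 factors (y axis, linear from 0) in the libraries of both compounds, proline, budesonide and control (x axis), with the points in replicate order from left to right and a bar for mean ± SD, n = 3. Pou3f1 reached 390.0 to 516 CPM with proline, against 45.3 to 63.2 CPM in control, while Sox12 was lowest with both compounds, at 18.6 to 25.3 CPM.

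**Figure D2:**
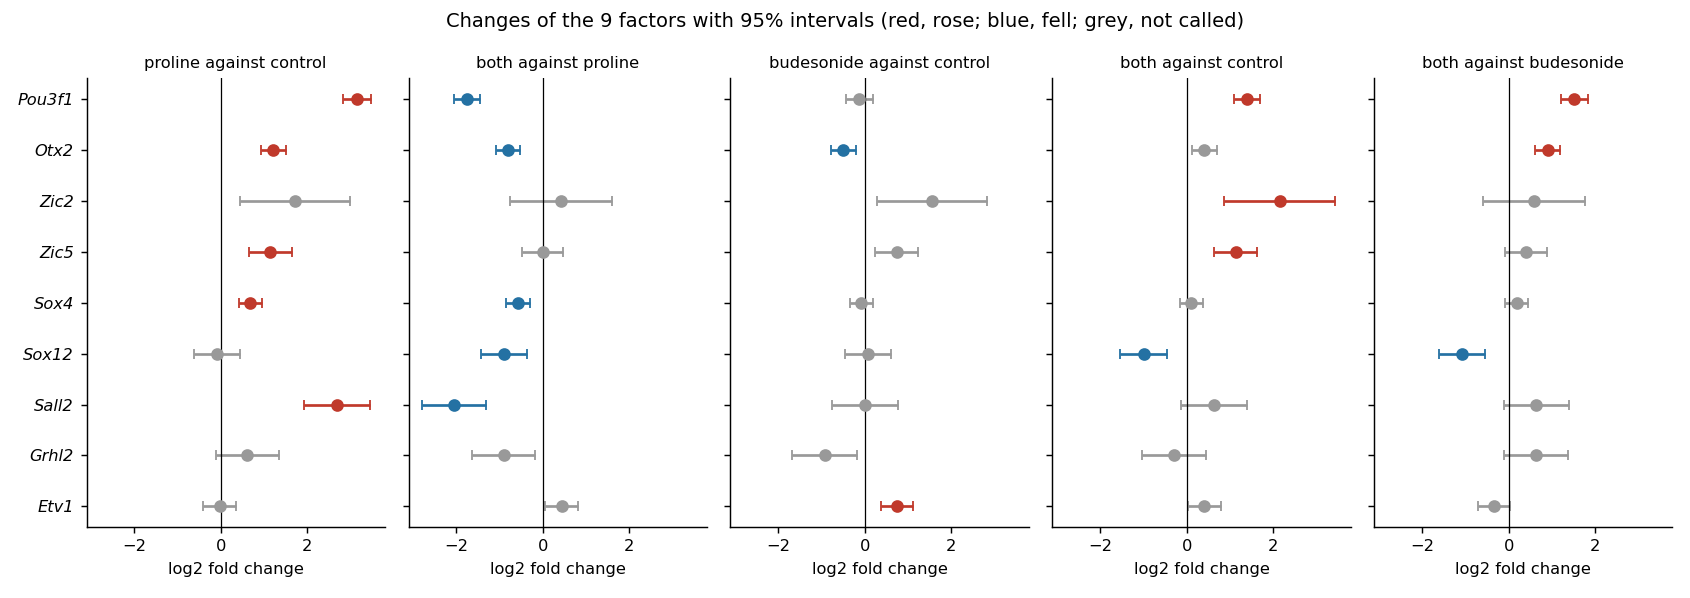
Log2 fold change (x axis) of each factor (y axis) in 5 comparisons, 1 panel each, with 95% intervals from the fitted model; red points rose, blue points fell and grey points were not called. Pou3f1 stands at 3.15 for proline against control and at −1.76 for both against proline.

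Pou3f1, also called Oct6, had the smallest p of the 13852 genes in the proline comparison. It stood at 149.8, 146 and 123 CPM in the 3 libraries of both compounds, at 507, 390.0 and 516 CPM with proline, at 45.8, 53.5 and 46.6 CPM with budesonide and at 45.3, 63.2 and 50.4 CPM in control. The libraries with both compounds lay below all proline libraries and above all budesonide and control libraries, and the libraries of budesonide and control overlapped. The log2 change was 3.15 ± 0.16 (SE) with proline against control (adjusted p = 3.89e-12), and −1.76 ± 0.15 with both compounds against proline (adjusted p = 2.63e-08). It also rose with both compounds against budesonide, by 1.52 ± 0.15 (adjusted p = 4.15e-06), and with both compounds against control, by 1.40 ± 0.15 (adjusted p = 3.48e-06). Budesonide alone gave −0.12, with a 95% interval of −0.44 to 0.19. With 3 libraries a group, groups that do not overlap are common over all tested genes. The share without overlap was 26.7% for proline against control, 31.9% for both against proline and 23.7% for budesonide against control. It was 19.4% for both against budesonide and 28.4% for both against control. The share of genes separated over more than a single pair of groups was not counted.

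Otx2, a homeodomain factor that drives exit from the naive state and later patterns the anterior neural plate, was the only factor of the 9 with no overlap between neighbouring groups. It stood at 138, 122 and 169 CPM with both compounds, at 261, 242 and 246 CPM with proline, at 84.0, 78.7 and 66.0 CPM with budesonide and at 115, 101 and 107 CPM in control. From low to high the order was budesonide, control, both, proline, and the share of all tested genes so separated was not counted. Otx2 rose by 1.22 ± 0.14 on the log2 scale with proline (adjusted p = 3.12e-06). It fell by 0.80 ± 0.14 with both compounds against proline (adjusted p = 0.000419) and rose by 0.91 ± 0.14 with both compounds against budesonide (adjusted p = 0.00140). The change with both compounds against control was 0.41, with an interval of 0.12 to 0.70 (adjusted p = 0.0782, or 0.0410 with DESeq2).

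The fall of Otx2 with budesonide alone, a log2 change of −0.49 ± 0.14 (adjusted p = 0.0350), depended on the libraries used. All 3 budesonide libraries lay below all 3 control libraries. The adjusted p was 0.127 without control 1, 0.0578 without control 2, 0.0617 without control 3, 0.0502 without proline 1, 0.0509 without proline 3, 0.0591 without budesonide 2, 0.165 without budesonide 3 and 0.0514 without the first library of both compounds. It was 0.0525 with the replicate numbers as a block, 0.0623 with limma-voom, 0.105 with only the groups compared and 0.127 with transcript length and GC offsets; without control 3 and budesonide 3 it was 0.187, and the range was 0.0112 to 0.187. This range, like those given for other genes, leaves out the test against 1.5-fold. The change itself was −0.57 to −0.40 in these settings.

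Zic2 and Zic5, zinc finger factors of the epiblast and the dorsal neural tube, are neighbouring genes on mouse chromosome 14. Zic5 stood at 74.0, 67.0 and 58.2 CPM with both compounds, at 51.03, 77.3 and 71.7 CPM with proline, at 40.8, 42.0 and 67.7 CPM with budesonide and at 32.4, 37.6 and 20.5 CPM in control. All 9 treated libraries lay above all control libraries, and the libraries of the 3 treated groups overlapped in the neighbouring pairs. Zic5 rose by 1.14 ± 0.24 with proline (adjusted p = 0.00312) and by 1.14 ± 0.24 with both compounds against control (adjusted p = 0.00404). Budesonide alone gave 0.74 ± 0.24 (adjusted p = 0.0665), which was called without control 2 (0.0497), with DESeq2 (0.0343) and with no low-count filter (0.0142), and stood at 0.25 without control 3 and budesonide 3 (0.678). With both compounds against proline, the log2 difference of Zic5 had an interval of −0.48 to 0.48, and against budesonide it was 0.40, with an interval of −0.08 to 0.89.

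Zic2 was the least counted of the 9, with 44 to 89 counts a library in both, 36 to 102 with proline, 10 to 68 with budesonide and 8 to 13 in control. It stood at 6.77, 7.46 and 11.9 CPM with both compounds, at 6.67, 7.70 and 5.002 CPM with proline, at 7.67, 1.55 and 8.03 CPM with budesonide and at 2.13, 2.51 and 1.23 CPM in control. The libraries of both and of proline lay above control, while budesonide 2 lay among the control libraries. With both compounds against control it rose by 2.15 ± 0.62 (adjusted p = 0.0346). That call ended without any 1 of the 6 libraries compared, at adjusted p of 0.0826 without control 1, 0.0652 without control 2, 0.128 without control 3, and 0.0632, 0.0724 and 0.133 without the first, the second and the third library of both compounds. It was 0.0631 with the replicate block, 0.127 with limma-voom, 0.0506 with length and GC offsets and 0.0782 without control 3 and budesonide 3 (range 0.00761 to 0.133). The changes with proline, 1.72 ± 0.61 (adjusted p = 0.0950), and with budesonide, 1.56 ± 0.61 (adjusted p = 0.143), were not called; without budesonide 2 the budesonide change was 2.00 (adjusted p = 0.0443). With both compounds Zic2 changed by 0.43 against proline (interval −0.75 to 1.61) and by 0.59 against budesonide (interval −0.60 to 1.78).

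Sall2, a spalt-like zinc finger factor, was high in the proline libraries and low in the other 9. It stood at 19.2, 13.2 and 8.14 CPM with both compounds, at 55.8, 51.8 and 60.4 CPM with proline, at 4.51, 14.1 and 7.64 CPM with budesonide and at 6.38, 11.6 and 8.17 CPM in control. The proline libraries did not overlap with any other, and the other groups overlapped with each other. Sall2 rose by 2.69 ± 0.37 with proline (adjusted p = 3.40e-05) and fell by 2.05 ± 0.36 with both compounds against proline (adjusted p = 0.000449). With both compounds against control the change was 0.64, with an interval of −0.12 to 1.39, and with both compounds against budesonide it was 0.64, with an interval of −0.11 to 1.39. Budesonide alone gave −0.0022, with an interval of −0.77 to 0.76.

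Sox4, an HMG box factor active in progenitors of many tissues, was likewise highest with proline. It stood at 126, 155 and 174 CPM with both compounds, at 224, 244 and 208 CPM with proline, at 140.1, 129 and 131 CPM with budesonide and at 142, 144 and 136 CPM in control. The proline libraries lay above all others, and the other groups overlapped with each other. The rise with proline was 0.68 ± 0.13 (adjusted p = 0.00140) and the fall with both compounds against proline was −0.57 ± 0.13 (adjusted p = 0.00533). The fall was not called without the first library of both compounds (−0.45, adjusted p = 0.0623; range over alternatives 0.000372 to 0.0623). Budesonide alone gave −0.07, with an interval of −0.34 to 0.20. Both compounds gave 0.11 against control (interval −0.16 to 0.38) and 0.18 against budesonide (interval −0.08 to 0.45).

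Sox12, of the same SoxC group, was lowest with both compounds. It stood at 18.6, 25.3 and 24.3 CPM with both compounds, at 31.1, 54.5 and 41.8 CPM with proline, at 37.4, 36.0 and 70.5 CPM with budesonide and at 47.8, 47.2 and 40.7 CPM in control. The libraries of both compounds lay below all 9 others, which overlapped. Neither compound alone gave a call: the log2 change was −0.10 with proline (interval −0.63 to 0.43) and 0.08 with budesonide (interval −0.44 to 0.61), and the second was −0.30 without budesonide 3, the library at 70.5 CPM.

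In both, Sox12 changed by −0.89 ± 0.26 against proline (adjusted p = 0.0292), by −1.08 ± 0.26 against budesonide (adjusted p = 0.0374) and by −0.99 ± 0.26 against control (adjusted p = 0.0217). The call against proline ended without proline 2 (adjusted p = 0.167), proline 3 (0.0666), or the first (0.141), the second (0.0567) or the third (0.0615) library of both, and with limma-voom (0.0747; range 0.00394 to 0.167). The call against budesonide ended without control 2 (0.0515), proline 3 (0.0510), budesonide 3 (0.239), or the first (0.186), the second (0.0825) or the third (0.113) library of both. It also ended with the replicate block (0.0523), with limma-voom (0.0749), with only the groups compared (0.0774) and without control 3 and budesonide 3 (0.151; range 0.00124 to 0.239). The call against control ended without control 1 (0.0636), control 2 (0.0625) or the first library of both (0.117; range 0.00148 to 0.117).

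Grhl2, a grainyhead-like factor that holds epithelial genes active in the primed state, gave no call in any comparison. It stood at 18.0, 18.4 and 13.9 CPM with both compounds, at 38.5, 28.4 and 26.8 CPM with proline, at 16.1, 8.99 and 7.11 CPM with budesonide and at 25.9, 26.6 and 9.25 CPM in control. The proline libraries lay above all others, and control 3, with 6.57% of tested genes at 0, lay among the budesonide libraries. The log2 changes were 0.61 with proline (interval −0.12 to 1.34), −0.92 with budesonide (−1.67 to −0.18, adjusted p = 0.141) and −0.90 with both compounds against proline (−1.63 to −0.17, adjusted p = 0.113). Without control 3 the budesonide change was −1.28 (adjusted p = 0.0226) and the change with both compounds against proline was −0.90 (adjusted p = 0.0464). The change against proline was also called with limma-voom (0.0467), with only the groups compared (0.0154) and without control 3 and budesonide 3 (0.0170), over a range of 0.0154 to 0.349. Both compounds gave 0.63 against budesonide (interval −0.11 to 1.38) and −0.29 against control (interval −1.03 to 0.45).

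Etv1, an ETS factor, was the only factor of the 9 whose budesonide libraries all lay above every other library. It stood at 47.2, 55.4 and 56.8 CPM with both compounds, at 37.4, 42.2 and 38.2 CPM with proline, at 71.7, 67.6 and 62.7 CPM with budesonide and at 46.8, 39.5 and 33.8 CPM in control. The libraries of both lay next in level, and proline and control overlapped. The share of all tested genes with budesonide libraries above every other was not counted. With budesonide Etv1 rose by 0.75 ± 0.18 (adjusted p = 0.0135). The call ended without control 2 (adjusted p = 0.0513), without control 3 (0.0649) and without control 3 and budesonide 3 together (0.0556; range 0.00119 to 0.0649). With both compounds against proline it changed by 0.44 (interval 0.06 to 0.82, adjusted p = 0.138), and proline alone gave −0.03 (interval −0.41 to 0.35). The changes with both compounds were −0.34 against budesonide (interval −0.71 to 0.03) and 0.41 against control (interval 0.03 to 0.79, adjusted p = 0.203).

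Whether budesonide altered the response to proline was tested as an interaction, the proline effect with budesonide minus the proline effect without it. Of the 9 factors, 1 was called, Pou3f1, where 0.469% of all tested genes were called in either direction. Its proline effect was 1.63 ± 0.21 lower on the log2 scale with budesonide (−1.63, adjusted p = 0.000183), and it was called in every alternative run. Sall2 had a larger estimate with a wider error, −2.05 ± 0.51 (interval −3.11 to −0.995, adjusted p = 0.0789), and was called with DESeq2 (0.0101), with no low-count filter (0.00157) and without budesonide 1 (0.0235), over a range of 0.00157 to 0.259. Sox12 at −0.98 ± 0.37, Zic5 at −0.74 ± 0.33 and Sox4 at −0.50 ± 0.18 had intervals below 0 but were not called (adjusted p = 0.399, 0.527 and 0.395). Otx2 had an interaction of −0.31 with an interval of −0.72 to 0.10, and Grhl2 one of 0.02 with an interval of −1.003 to 1.05. Zic2 had −1.13 (interval −2.86 to 0.59) and Etv1 −0.31 (interval −0.84 to 0.22).

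**Figure D3:**
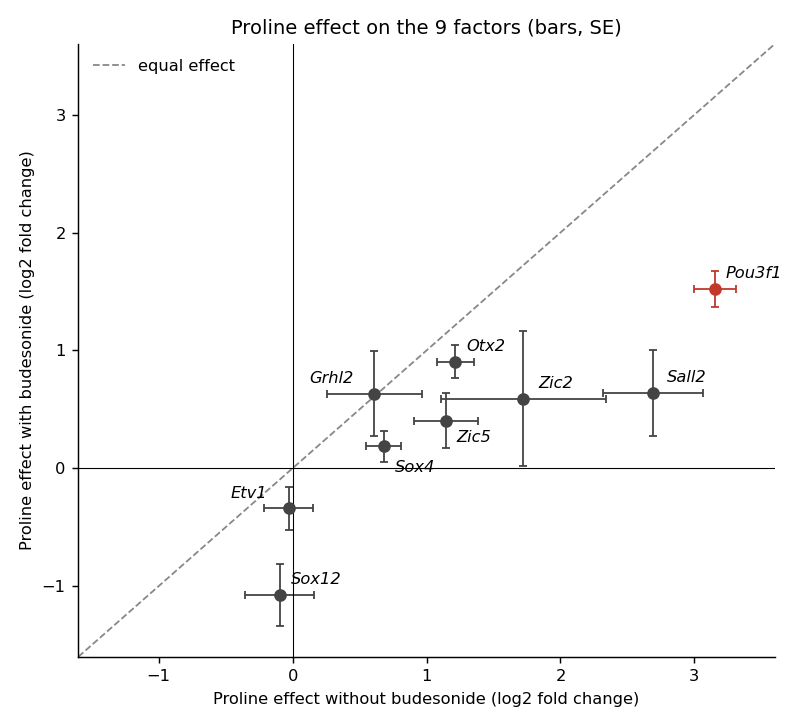
Proline effect on each factor without budesonide (x axis, proline against control) and with budesonide (y axis, both against budesonide), both as log2 fold change with SE bars; the dashed line marks equal effects. Pou3f1, in red, lies at 3.15 and 1.52, Sall2 at 2.69 and 0.64 and Otx2 at 1.22 and 0.91.

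Members of the same families were read from a list of 15 paralogs, of which 9 passed the filter. With proline 1 rose and 1 fell, where 3.17% of all tested genes rose and 4.71% fell. With both compounds against proline 1 rose and 2 fell, where 5.83% of all tested genes rose and 4.27% fell. Sox11, the third SoxC factor, averaged 88.0 ± 7.11 CPM with both, 136 ± 11.2 CPM with proline, 79.6 ± 8.39 CPM with budesonide and 87.2 ± 13.3 CPM in control (SD, n = 3). It rose by 0.64 ± 0.15 with proline (adjusted p = 0.00807) and fell by 0.63 ± 0.15 with both compounds against proline (adjusted p = 0.00763). Sall3 changed by −1.06 ± 0.19 with proline (adjusted p = 0.000691) and by 1.84 ± 0.19 with both compounds against proline (adjusted p = 7.58e-07), signs opposite to those of Sall2. Sall3 rose by 0.73 ± 0.18 with budesonide alone (adjusted p = 0.0168), as did Sall1, by 0.86 ± 0.16 (adjusted p = 0.00155), while Sall4, a core stem cell factor, had an interval of −0.15 to 0.30 with proline. Etv4 of the PEA3 group fell in both, by 0.88 ± 0.23 against proline (adjusted p = 0.0141) and by 1.22 ± 0.23 against control (adjusted p = 0.00159), where Etv1 had positive estimates. Against budesonide the estimates of these genes had the same sign. Etv4 fell there by 0.93 ± 0.23 (adjusted p = 0.0398), and Etv1, not called, was at −0.34 ± 0.18. Grhl1 at 0.80 (adjusted p = 0.253), Grhl3 at −0.98 (adjusted p = 0.445) and Etv5 at −0.05 (adjusted p = 0.901) were not called with proline. Pou3f3 had at most 3.03 CPM and no count in 4 libraries, and Crx had no count in any library.

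**Figure D4:**
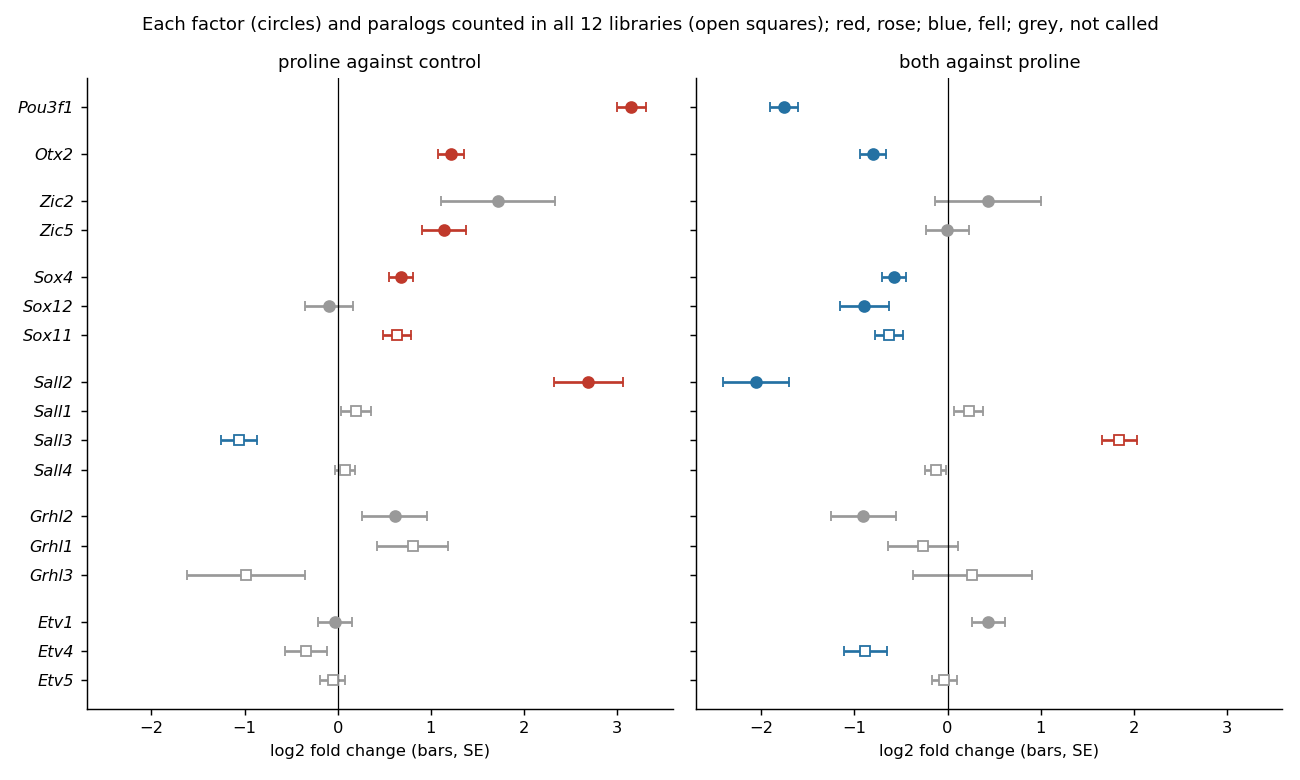
Log2 fold change with SE bars (x axis) of the 9 factors (filled circles) and of 8 paralogs counted in every library (open squares), grouped by family (y axis), for proline against control (left) and both against proline (right); red rose, blue fell and grey was not called. Sall2 and Sall3 stand on opposite sides of 0 in each panel, at 2.69 and −1.06 on the left and at −2.05 and 1.84 on the right.

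Other genes of the epiblast programme were counted from lists chosen with earlier results of these data known. Over all tested genes, 3.17% rose and 4.71% fell with proline, and 5.83% rose and 4.27% fell with both compounds against proline. Of 14 epiblast markers that are not transcription factors, 8 rose and none fell with proline, and 7 fell and 1 rose with both compounds against proline. The kinase Pim2 averaged 79.0 ± 3.82 CPM with both and 368 ± 26.3 CPM with proline, and its log2 change in that comparison was −2.22 ± 0.14 (adjusted p = 3.18e-10). The de novo DNA methyltransferases Dnmt3b and Dnmt3a changed by 1.66 ± 0.11 and 1.43 ± 0.13 with proline (adjusted p = 7.72e-10 and 8.10e-08). With budesonide alone 4 of the 14 markers fell (Tdgf1, Pim2, Dnmt3b and Dnmt3a) and none rose. That comparison called 6.51% of all tested genes in either direction. In the interaction 3 of the 14 markers fell, none rose and 11 were not called. Over all tested genes 0.469% were called there in either direction. The 3 were Pim2 (−1.37 ± 0.20, adjusted p = 0.000967), Dnmt3b and Dnmt3a, in the direction of Pou3f1. Of 11 other epiblast factors, 3 rose and 1 fell with proline. The Wnt effector Lef1 rose by 1.62 ± 0.23, Sox11 as given above and the Wnt repressor Tcf7l1 by 0.74 ± 0.18, and the Notch effector Rbpj fell by 0.74 ± 0.13. Of the same 11, 1 rose and 5 fell with both compounds against proline, Utf1 by 0.85 ± 0.12 among them.

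Of 12 naive factors, 10 fell and none rose with proline, and 10 rose and none fell with both compounds against proline, the opposite direction to Pou3f1, Otx2, Sall2 and Sox4 in the same libraries. Of 14 tested epithelial genes known as Grhl2 targets, 2 rose and 1 fell with proline, Epcam by 0.63 ± 0.14 and Esrp1 by 0.88 ± 0.25 upward and Cldn4 by −1.05 ± 0.22. Their median change with proline was 0.64, against −0.01 over all genes. With both compounds against proline Cldn4 rose and Epcam fell. A list of 11 FGF and ERK signalling genes held response genes and the receptor Fgfr1. Of these 11, 2 rose and none fell with proline, the phosphatases Dusp4 (2.14 ± 0.45) and Dusp6 (0.52 ± 0.15). With both compounds against proline 1 rose, the receptor Fgfr1 (0.77 ± 0.21), and 2 fell, Etv4 and Dusp6 (−0.51 ± 0.15). Beside the counts of these lists, 3.17% of all tested genes rose and 4.71% fell with proline. The shares with both compounds against proline were 5.83% and 4.27%.

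Several of the 9 factors also act in other lineages, so markers of those lineages were summed. The 12 neuroectoderm markers summed to 111 to 147 CPM in both, 95.1 to 105 CPM with proline, 95.01 to 102 CPM with budesonide and 95.8 to 108 CPM in control, and Neurog2, Olig2 and Dcx had no count in at least 10 of the 12 libraries. The 10 streak and mesoderm markers summed to 56.4 to 61.0, 48.9 to 50.6, 56.6 to 66.5 and 86.6 to 99.8 CPM in the same order. Bmp4 made up most of these sums, at 46.3 to 50.7 CPM in both, 28.6 to 32.1 with proline, 47.9 to 61.6 with budesonide and 75.8 to 84.0 in control, while T was at 0 in 8 libraries and Mesp1 in 10. The 8 endoderm markers summed to 15.5 to 25.5, 25.1 to 27.5, 5.40 to 14.9997 and 9.72 to 14.9 CPM. The 8 trophoblast markers summed to 127 to 149.9, 42.2 to 68.8, 95.3 to 134 and 60.7 to 67.7 CPM. Tfap2c was the largest part of the trophoblast sums, at 69.2 to 90.6 CPM in both, 25.6 to 36.9 with proline, 43.1 to 74.0 with budesonide and 39.4 to 42.6 in control, and Elf5 was at 0 in 11 libraries. The 10 fibroblast markers summed to 5.602 to 9.80, 20.7 to 27.5, 8.83 to 12.5 and 12.6 to 22.4 CPM, with Lum at 0 in all 12. The endoderm and fibroblast sums had their highest means with proline, as Pou3f1, Otx2, Sall2 and Sox4 did, but the endoderm sums of proline overlapped those of both, and the fibroblast sums overlapped those of control. The trophoblast sums were higher in both and with budesonide than with proline or in control, as Etv1 was. Of the 7 tested neuroectoderm markers, 3 rose and none fell with both compounds against control, where 3.34% of all genes rose. They were Pax6 (2.35 ± 0.41), Msi1 (1.87 ± 0.40) and Map2 (2.10 ± 0.64). With proline Msi1 rose (1.35 ± 0.40) and Tubb3 fell (−0.92 ± 0.19). With budesonide Neurod1 fell (−1.12 ± 0.23). Of the 6 tested endoderm markers, 1 rose and none fell with proline, and the same with budesonide. It was Sox17, at no more than 4.96 CPM (5.02 ± 1.52 and 5.28 ± 1.53). Over all genes 3.17% rose with proline, and 6.51% were called in either direction with budesonide. Gata4, Gata6, Foxa2 and Sox7 were not called and had estimates of −1.56, −0.98, −0.59 and −2.08 with budesonide. Without control 3 and budesonide 3, no endoderm marker was called with budesonide. The part of these markers in the results was not tested.

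The genes with the most similar pattern were found by Pearson's r of log2 CPM (prior count 2) over the 12 libraries. These fall into 4 groups, so r mostly follows the group differences, and it is given as a description with no p. Pou3f1 was closest to the histone chaperone Nap1l1 (r = 0.973), the CTP synthase Ctps (0.972) and Eif4h (0.966). Otx2 was closest to Arl4c (0.983), the splicing protein Snrpb (0.977) and the histone-binding protein Rbbp4 (0.9746). Sall2 was closest to C1qbp (0.969), the RNA-binding protein Lin28a (0.954) and the mitochondrial phosphate carrier Slc25a3 (0.939), and Sox4 to Dnmt3a (0.947), Tmem254a (0.931) and Zfp608 (0.930). Zic5 was closest to the membrane fission protein Dnm2 (0.941), the Polycomb protein Bmi1 (0.933) and Myef2 (0.920), and Zic2 to Cxxc1 (0.936), Cadm1 (0.913) and Arnt (0.904). Sox12 was closest to Gm19705 (0.914), Fahd1 (0.903) and Hdhd2 (0.870), Grhl2 to Zkscan17 (0.935), Tafa4 (0.935) and Kpna6 (0.931), and Etv1 to Gm43339 (0.938), 4833420G17Rik (0.925) and Plekhb2 (0.922).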

How the data were processed

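Messenger RNA was measured in 12 libraries. Per the labels' protocols, the QuantSeq kit read polyadenylated RNA near its 3′ end, so a count depends little on transcript length. Build GRCm39, STAR 2.7.5c, featureCounts 2.0, cutadapt 2.5, bcl2fastq and DESeq2 are listed, with no role, per the submitters' processing notes. Neither annotation nor strand setting is given in the sources used here. Antisense genes near Otx2, Zic2 and Grhl2 were counted too, with at most 10 and 16 counts in a library for those of Otx2 and Zic2 and at most 49, 10 and 35 for the 3 of Grhl2. How many antisense reads were counted to the factors themselves is not known.

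The authors deposited raw counts per gene symbol, which were tested. The authors also deposited a normalised signal for 19196 symbols. It equalled the count over the size factor of DESeq2 within 0.01 for 100% of values and was not otherwise used.

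Counts were fitted in R 4.3.3 with edgeR 4.0.16: filterByExpr (minimum count 10, minimum total 15), TMM scaling, 1 coefficient per group and the quasi-likelihood F test, with p-values adjusted by Benjamini-Hochberg over 13852 genes. Log2 changes carry an SE, the absolute change over the square root of F. The scripts were tested on simulated data. Alternatives were a replicate block, DESeq2 1.42.0 and its size factors, limma-voom (limma 3.58.1), no filter, only the groups compared, each library left out, control 3 and budesonide 3 left out, a test against 1.5-fold, and offsets for transcript length and GC from GENCODE M21, which matched 97.7% of genes. Values of all 9 factors are given for every comparison; from each list the text names up to 4 called genes, with paralogs. The 9 factors and the lists were chosen with earlier results of these data known. The value of 1 further gene, taken out of the lists, is not reported here.

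Depth was 5.30 to 15.9 M counts a library. Counting intervals were not used, since error is taken from replicates. Replicates correlated at 0.887 to 0.956 within groups across genes. Replicates differed by more than sampling noise, with a chi-square per degree of freedom of at least 5.55.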

Additional observations from a re-analysis of the deposited data

Results flagged for a closer look

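The effect of proline on Pou3f1 differed between cells with and without budesonide by a test of the difference itself, which is why it is listed here. The log2 effect of proline was 1.52 with budesonide and 3.15 without it, a difference of −1.63 ± 0.21 (SE, 3 libraries a group, edgeR's quasi-likelihood test, adjusted p = 0.000183). All 3 libraries with both compounds lay below all 3 with proline, and these groups did not overlap for 31.9% of all tested genes. With 3 libraries a group, single libraries were not tested for standing apart.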

How the results depend on the processing

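Of 1124 changes of the 9 factors recomputed under 21 settings, 1016 kept direction and side of the threshold, 58 were no longer called, 13 became called and 37 changed sign, none of them called. Every call of Pou3f1, of Otx2, Sall2 and Zic5 other than Otx2 with budesonide alone, and of Sox4 with proline, held in every setting other than the test against 1.5-fold. In that test the Pou3f1 and Sall2 calls and that of Otx2 with proline held, and every other call of the 9 factors was lost. Tested against 1.5-fold, the called factors numbered 3 (proline against control), 0 (budesonide against control), 2 (both against proline), 1 (both against budesonide) and 1 (both against control), and the called genes numbered 192, 24, 216, 7, 83 and, for the interaction, 10. With budesonide alone, 1 factor was called with the replicate block, limma-voom, only the groups compared or length and GC offsets, and 0 without control 3 and budesonide 3; 493 genes were called with only the groups compared and 575 without those libraries. For both against budesonide, 128 genes were called with the replicate block, 435 with DESeq2, 354 with no filter, 120 with only the groups compared and 120 with offsets, against 203. For the interaction, 2 factors were called with DESeq2 and 2 with no filter, and 162 genes with DESeq2, 134 with no filter and 33 with offsets, against 65.

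Leaving out each library in turn gave 5 to 5 factors and 674 (without proline 1) to 1245 genes for proline against control, 1 to 2 and 620 to 912 for budesonide against control, 3 to 6 and 836 (without the first library of both) to 1647 for both against proline, 2 to 3 and 80 (without the same) to 307 (without control 3) for both against budesonide, 2 to 4 and 535 (without the second library of both) to 1187 for both against control, and 1 to 2 and 44 to 89 for the interaction. Changes of sign were as follows, with the range when each library was left out. Etv1 with proline gave 0.0314 with offsets (−0.14 to 0.10), Sox12 with proline −0.31 to 0.0900, and Pou3f1 with budesonide −0.22 to 0.0241. Sall2 with budesonide gave 0.0014 with DESeq2 size factors, 0.0041 with DESeq2, 0.0031 with no filter, 0.0022 with only the groups compared and 0.0435 without control 3 and budesonide 3 (−0.53 to 0.32). Sox12 with budesonide gave −0.37 without those libraries and −0.0403 with offsets (−0.30 to 0.24). Zic5 in both against proline gave 0.0103 with the replicate block and 0.0699 with limma-voom (−0.17 to 0.12), Sox4 in both against control −0.0240 with offsets, and the Grhl2 interaction −0.19 with limma-voom and −0.0300 with offsets (−0.21 to 0.45). The cause was not tested.

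Replicate numbers did not pair the libraries: 18 correlations between same-numbered libraries ran from −0.0767 to 0.0529, and 0 exceeded 0.1. With 3 libraries a group and 8 to 102 counts of Zic2, its changes carried the widest errors.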
